A study of Arabidopsis thaliana with 8 samples.

Results

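The transcriptional heat response of the HSA32 knockout of Arabidopsis thaliana was set against that of wild type, transcript by transcript, to ask whether the response depended on the genotype. All 8 arrays of the series were used, and all 22746 probe sets of the ATH1 array that are not controls, out of 22810. A probe set is the group of short probes that reads 1 transcript or several related ones. The 4 groups held 2 arrays each. They were knockout shoots kept for 2 h at 37 °C, knockout shoots kept for 2 h at 22 °C, wild-type shoots kept for 2 h at 37 °C and wild-type shoots kept for 2 h at 22 °C. All plants were 15-day-old Col-0 seedlings, and each array read a separate pool of shoots. The knockout is 1 T-DNA insertion line of HSA32 (AT4G21320), GABI-268A08, and only shoots collected directly at the end of the treatment were measured.

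HSA32 is a heat-stress-associated protein of land plants that is made after heat and is known for its part in keeping up acquired thermotolerance over a long recovery. The acute heat response of plant cells is driven by heat shock transcription factors, which switch on chaperones. Small heat shock proteins hold unfolded proteins, HSP70 proteins with their DnaJ partners refold them, and cochaperones such as Hop pass clients to HSP90. The same treatment lowers many transcripts for growth.

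Genotype dependence was measured as an interaction, the heat response of the knockout minus that of wild type, each on the log2 scale of the deposited signal plus 29.1. A positive interaction means a response that was higher, or less negative, in the knockout. The linear model in limma was fitted to the 15919 probe sets left after the dimmest 30% by mean signal were put aside. The other 6827 were not tested. Errors of interactions and responses are standard errors from that model, and p-values were adjusted by Benjamini and Hochberg's method over all 15919. The wild-type replicate 1 arrays stood apart from the rest. On the second principal component, with 22.0% of the variance, they lay at 67.8 (37 °C) and 46.5 (22 °C), and the highest of the other 6 arrays lay at 12.5. Set medians and most single values below are therefore also given without both. Leaving out both leaves wild type with no replicate arrays, so those values carry no wild-type spread. The source description of the wild-type control replicate 1 array lacks the word control, and its title was followed. Its first principal component, which parted the temperatures with 60.1% of the variance, lay at −52.0 among the controls. LHCB4.1, an antenna protein of leaf photosystems, read 19950 to 40556 on all 8 arrays. The summed signals of 3 root markers and of 2 seed markers were at most 272 and 239.

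HSA32 had the smallest interaction p of all probe sets tested. Its signal was 378 and 589 in heated knockout shoots against 1125 and 1247 in knockout controls, and 23175 and 9240.3 in heated wild-type shoots against 657 and 230.0 in wild-type controls. The heated knockout arrays lay below both knockout controls and within the range of the wild-type controls. The heated wild-type arrays lay far above the other 6. The mean was 484 ± 149 in heated knockout shoots and 1186 ± 86.2 in knockout controls, and 16208 ± 9853 in heated wild-type shoots and 444 ± 302 in wild-type controls (SD, n = 2 each). The log2 heat response was −1.27 ± 0.57 in the knockout (adjusted p = 0.22 in limma) and 5.12 ± 0.57 in wild type (adjusted p = 0.0016 in limma), a 34.8-fold rise. Taken by replicate number, the responses were −1.50 and −1.05 in the knockout and 5.08 and 5.16 in wild type. Any pairing of a heated with a control array gave −1.65 to −0.90 in the knockout and 3.76 to 6.48 in wild type.

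**Figure D1:**
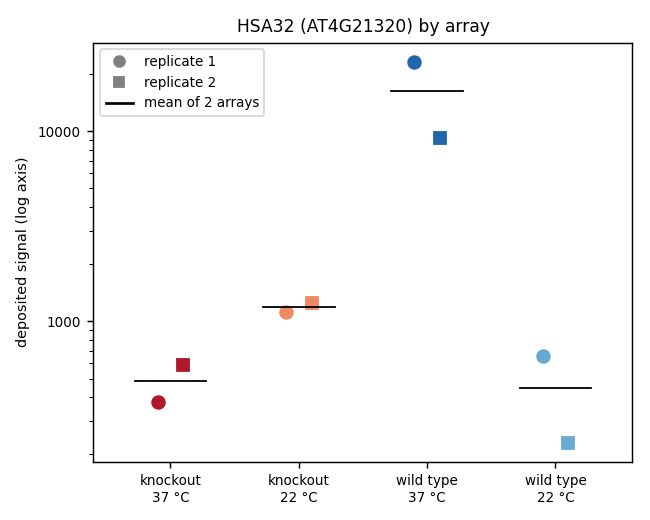
Deposited signal of HSA32 on each of the 8 arrays (log axis), with groups along the horizontal axis, circles for replicate 1, squares for replicate 2 and lines for the mean of 2 arrays. The heated wild-type arrays, at 23175 and 9240.3, lie above all others, and the knockout controls lie above the heated knockout arrays.

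The HSA32 interaction was −6.39 ± 0.80, with a 95% interval of −8.22 to −4.57, so the responses differed 84.1-fold. With no replicate block its unadjusted p was 2.6e-05, but after adjustment over all probe sets it was 0.42 in limma and did not pass 0.05. After heat the knockout stood below wild type by a log2 difference of −4.87 ± 0.57 (adjusted p = 0.23). At 22 °C the knockout mean stood above wild type by 1.52 ± 0.57 (adjusted p = 1.0). The interaction lay between −7.10 and −5.69 when any 1 array was left out, with adjusted p from 0.087 to 1.0. Without both wild-type replicate 1 arrays it was −6.43, in a fit that leaves wild type with no replicate arrays. Where the probes lie relative to the T-DNA was not analysed here, so the signal left in the knockout cannot be assigned to an intact transcript.

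HSA32 apart, no probe set came near a call, and HSA32 itself was not called in the fit with all 8 arrays and no replicate block. A planned block of same-numbered arrays also left it uncalled. A crossed block and a block within each genotype called HSA32 alone (adjusted p 0.0094 and 0.0003 in limma). Both were chosen after residuals of same-numbered arrays were seen to correlate within genotypes. With no block, the interaction passed the adjusted threshold for 0 of 15919 probe sets (0.0%) in limma. At an unadjusted p under 0.05 there were 88 (0.553%), of which 28 were higher in the knockout response (0.176%) and 60 lower (0.377%). Uniform p-values would give 796, so small p-values were scarcer than that. With the block within each genotype 382 reached it. The cause was not tested. Interactions ran from −6.39 to 2.32, with −2.53 the second lowest, with quartiles of −0.27 and 0.24. A size over 1 log2 unit was reached by 544 (3.42%). Positive values were nearly as common as negative ones, 7828 (49.2%) against 8091 (50.8%). Knockout and wild type compared directly also gave 0 calls after heat and 0 at 22 °C in limma (0.0% each), with 280 (1.76%) and 82 (0.515%) at an unadjusted p under 0.05. The count of 88 moved with single arrays. It was 50 without knockout control replicate 1, 172 without knockout heat replicate 2, 365 and 631 without the first and the other heated wild-type array, and 49 and 330 without the first and the other wild-type control array.

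With 2 arrays a group and no replicate block, the fit could see only large differences. The half-width of the 95% interval of an interaction had a median of 1.28 on the log2 scale, a 2.44-fold difference of responses. The interval lay within −1 and 1 for 102 probe sets (0.641%) and within −2 and 2 for 12127 (76.2%). A missing call is therefore not evidence of equal responses. Of probe sets that heat changed on the mean of both genotypes, 6 with 1 gene had the interval that reached least far from 0. For AT5G11420, a DUF642 cell wall protein, the interaction was −0.01 ± 0.39 (95% interval −0.90 to 0.88), with responses of −0.92 ± 0.28 in the knockout and −0.91 ± 0.28 in wild type. Interactions of AT4G39050, a kinesin, and AT1G17860, of the Kunitz trypsin inhibitor family, were −0.03 ± 0.43 and −0.02 ± 0.44. The other 3 were AT5G54200 at 0.01, AT1G47340 at −0.05 and AT2G21830 at 0.03.

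The heat calls of each genotype overlapped unevenly. The knockout had 1080 probe sets past the adjusted threshold (6.78%), 498 raised (3.13%) and 582 lowered (3.66%). Wild type had 406 (2.55%), 293 raised (1.84%) and 113 lowered (0.71%). Both genotypes raised 288, which is 57.8% of the knockout's and 98.3% of wild type's raised calls. Both lowered 98, which is 16.8% and 86.7%. No probe set was called in opposite directions. A call in the knockout without one in wild type was made for 210 raised and 484 lowered probe sets. Of these, 8 (3.81%) and 30 (6.198%) had an unadjusted interaction p under 0.05 in limma, against 0.553% of all tested. Choosing probe sets in this way itself favours a larger response in the knockout. The interaction was above 0 for 205 of the 210 and below 0 for 467 of the 484. The higher shares are therefore not evidence of a difference between genotypes. None of the 210 or the 484 passed the adjusted test of the difference, so the calls of 1 genotype alone are not shown to be particular to it. By replicate number, the median response of the 484 was −1.84 and −1.81 in the knockout and −0.96 and −1.62 in wild type. For the 210 it was 1.98 and 2.13 in the knockout and 1.32 and 1.64 in wild type. Wild-type replicate 1 thus gave the smallest response in both. The reverse, a call in wild type without one in the knockout, was made for 5 raised and 15 lowered probe sets. Among the 5, those with 1 gene were HSA32 and AT5G47160, whose interaction was −0.99 ± 0.68, and −0.35 without both wild-type replicate 1 arrays.

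**Figure D2:**
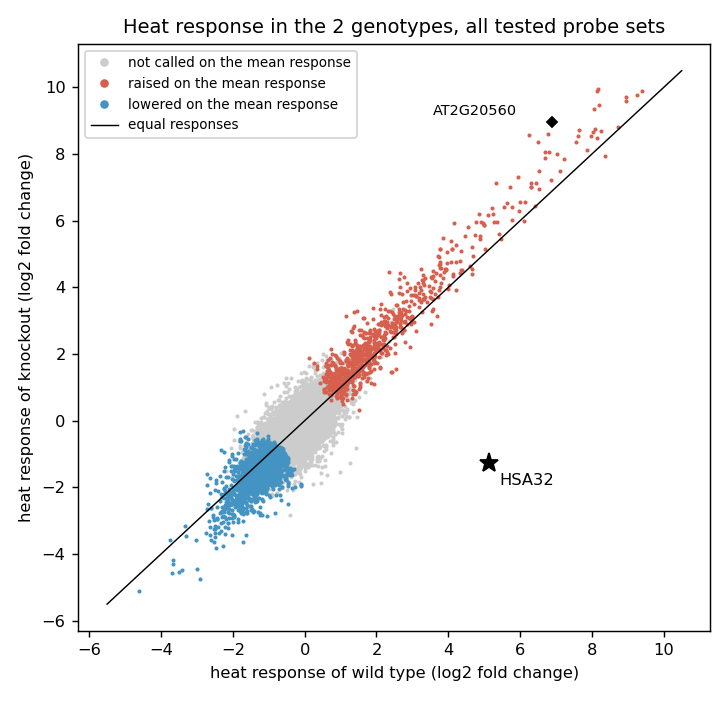
Log2 heat response of every tested probe set in the knockout (vertical axis) against wild type (horizontal axis), coloured by the call on the mean response of both genotypes, with the line of equal responses and with HSA32 and AT2G20560 marked. Raised probe sets lie mostly above the line with all 8 arrays, and HSA32, at 5.12 in wild type and −1.27 in the knockout, lies farthest below it.

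Probe sets that heat changed on the mean of both genotypes were then compared between genotypes as sets. This mean is independent of the interaction in a balanced fit whose groups share the same spread. In that model it does not fix the interaction's sign. Whether the spread was equal in both genotypes was not tested. The mean response called 2751 probe sets (17.3%), 835 raised (5.25%) and 1916 lowered (12.0%). Among the raised ones the median log2 response was 1.99 in the knockout and 1.66 in wild type, and the median interaction was 0.37 (quartiles 0.11 and 0.68), with 696 above 0 (83.4%). Among the lowered ones the median response was −1.40 in the knockout and −1.17 in wild type, and the median interaction was −0.25 (quartiles −0.52 and −0.00), with 1437 of 1916 below 0. Over all probe sets the median interaction was −0.01. The medians thus lay on the side of a larger response in the knockout in both directions. Probe sets of 1 array are not replicates, and these counts carry no test.

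The set medians depended on which wild-type replicate was used. By replicate number, the raised set's median response was 1.95 and 2.09 in the knockout and 1.57 and 1.79 in wild type. The lowered set's was −1.41 and −1.39 in the knockout and −0.88 and −1.45 in wild type. The wild-type replicate 1 arrays thus gave the smallest response in both sets. Against wild-type replicate 1 alone, knockout replicates 1 and 2 gave median interactions of 0.50 and 0.60 for the raised set and −0.53 and −0.52 for the lowered set. Against wild-type replicate 2 alone they gave 0.15 and 0.21, and 0.05 and 0.06. Without both wild-type replicate 1 arrays, the raised set's median was 0.18 with 68.1% above 0, and the lowered set's turned to 0.04 with 53.7% above 0. Of single arrays, leaving out wild-type control replicate 1 brought the raised set to 0.24. The lowered set was at −0.15 without knockout heat replicate 1, at −0.09 without wild-type heat replicate 1, at −0.40 without wild-type heat replicate 2 and at −0.11 without wild-type control replicate 1.

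**Figure D3:**
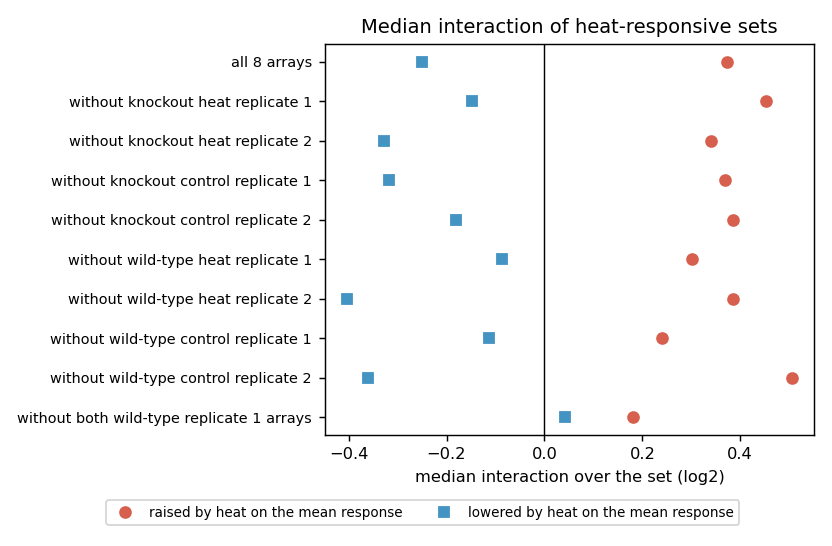
Median log2 interaction of the 835 probe sets raised and the 1916 lowered on the mean heat response (horizontal axis), with all 8 arrays and with 1 or both named arrays left out (rows). The raised set stays above 0 in every row, from 0.18 to 0.51, and the lowered set crosses 0 in the bottom row.

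Stronger responders differed more between genotypes with all arrays. The raised set was split by the size of its mean response into 3 equal parts. The median interaction was 0.23 in the weakest part, 0.34 in the middle one and 0.60 in the strongest, and 92.5% of the strongest lay above 0. With the wild-type replicate 1 arrays left out these medians were 0.13, 0.27 and 0.16, with no such order. For the lowered set they were −0.16, −0.24 and −0.41, and −0.00, 0.07 and 0.07 without those arrays.

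Chaperones responded strongly in both genotypes. Over the small heat shock proteins, HSP70 proteins, cochaperones and chaperonins, 20 of 27 tested probe sets were raised on the mean response. Of these 20, 19 had an interaction above 0, with a median of 0.74, against 83.4% above 0 in the whole raised set and 92.5% in its strongest part, whose median was 0.60. Only 1 of the 20 had an unadjusted p under 0.05, and 0 passed the adjusted threshold in limma. The knockout mean was below wild type at 22 °C for 18 of the 20 (median −0.47) and above it after heat for all 20 (median 0.26). For all 20, wild-type control replicate 1 read higher than wild-type control replicate 2. Without both wild-type replicate 1 arrays, 14 of the 20 lay above 0 and their median was 0.27. Of single arrays, wild-type control replicate 1 and wild-type control replicate 2 moved the median most, to 0.39 and 1.20 when left out. Heated chaperone signals of up to 48091 stood near the array maxima, which were 33917 to 57211 in heated knockout shoots and 36679 to 43815 in heated wild-type shoots.

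Small heat shock proteins had 9 tested probe sets, of which 7 lay above 0 with a median of 0.48, against 49.2% of all tested. By adjusted p, 7 were raised in each genotype, against 3.13% (knockout) and 1.84% (wild type) of all tested. AT1G53540, a cytosolic class I member, read 48091 and 27069.6 in heated knockout shoots against 77.4 and 58.1 in knockout controls, and 30670.4 and 36381 in heated wild-type shoots against 199 and 99.8 in wild-type controls. The heated groups overlapped. Its interaction was 0.94 ± 0.59 (unadjusted p = 0.14). AT2G29500, AT5G37670 and AT1G54050, of the same superfamily, had interactions of 0.65 ± 0.51, 0.81 ± 0.65 and 0.71 ± 0.49. Leaving out the wild-type replicate 1 arrays gave 0.48, 0.02 and 0.45, and 0.41 for AT1G53540. The 2 members below 0, named after their values were seen, were ATHSP22.0 at −0.42 ± 0.72, raised in both genotypes, and AT4G21870 at −0.53 ± 1.00. They were at −1.27 and −0.47 without those arrays. With quantile normalization the list's median was 0.31, and without both wild-type replicate 1 arrays it was 0.05. It was 0.21 without knockout heat replicate 1, 0.82 without knockout heat replicate 2 and 0.73 without wild-type heat replicate 2.

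All 4 HSP70 probe sets lay above 0 with all arrays, with a median of 0.79, and 3 of 4 did without both wild-type replicate 1 arrays, with a median of 0.52. Of all tested probe sets 49.2% lay above 0 with all arrays. By adjusted p, 4 HSP70 probe sets were raised in the knockout and 2 in wild type, against 3.13% and 1.84% of all tested. AT3G09440, a cytosolic HSP70, read 29134 and 20926 in heated knockout shoots against 196 and 369.6 in knockout controls, and 12042 and 28903 in heated wild-type shoots against 596 and 372 in wild-type controls. Wild-type heat replicate 1 was the lowest of the 4 heated arrays and wild-type control replicate 1 the highest of the 4 controls. The interaction was 1.14 ± 0.70 (unadjusted p = 0.14), and 0.19 without the wild-type replicate 1 arrays. Hsp70-2, AT4G16660 and AT1G11660 had interactions of 0.75 ± 0.85, 0.82 ± 0.78 and 0.64 ± 0.86, and of −0.16, 0.85 and 1.10 without those arrays. The list's median was 0.45 without knockout heat replicate 2, 0.34 without knockout control replicate 1 and 1.29 without knockout control replicate 2.

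Of 12 cochaperones, 10 lay above 0 with a median of 0.59, against 49.2% of all tested probe sets. In each genotype 8 were called raised, against 3.13% (knockout) and 1.84% (wild type) of all tested. The DnaJ protein AT2G20560, a partner of HSP70, had the largest interaction of any list member, 2.08 ± 0.86 (unadjusted p = 0.039, adjusted p = 1.0 in limma). It read 21249 and 18092 in heated knockout shoots against 9.5 and 11.4 in knockout controls, and 11023 and 19186 in heated wild-type shoots against 223 and 31.9 in wild-type controls. The heated groups overlapped, and the genotypes were apart at 22 °C, where both knockout arrays lay below both wild-type arrays. Its low control signals lie under the offset of 29.1 in the knockout, and without the wild-type replicate 1 arrays the interaction was 0.66. Hop3, which links HSP70 and HSP90, was at 1.20 ± 0.73, AT3G12050, an activator of the HSP90 ATPase, at 1.00 ± 0.55, and BOB1, a NudC-type chaperone, at 0.74 ± 0.58. With the wild-type replicate 1 arrays left out they were at 0.51, 0.34 and 0.60. The list's median was 0.25 without both wild-type replicate 1 arrays, and 0.088 and 1.15 when the first or the other wild-type control array was left out.

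Plastid and folding factors outside these families were few. Cpn60beta2, a subunit of the plastid chaperonin, rose in both genotypes with an interaction of 0.96 ± 0.86, and −0.07 without the wild-type replicate 1 arrays. RCA, the Rubisco activase, was at −0.02 ± 0.48. BZIP28 and BZIP17, membrane-bound transcription factors of the endoplasmic reticulum stress response, were at 0.59 ± 0.53 and −0.23 ± 0.44, and at 0.35 and −0.05 without those arrays. The endoplasmic reticulum folding list held 5 genes, among them the transcription factor BZIP60. Of these 5, 4 lay above 0, against 49.2% of all tested probe sets. ATERDJ3B was highest at 0.70 ± 0.47 (0.41 without those arrays) and BZIP60 lowest at −0.51 ± 0.58 (−0.37). None had an unadjusted p under 0.05. No probe set here was named for an HSP90, an HSP100 or a heat shock factor, so these were not analysed.

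**Figure D4:**
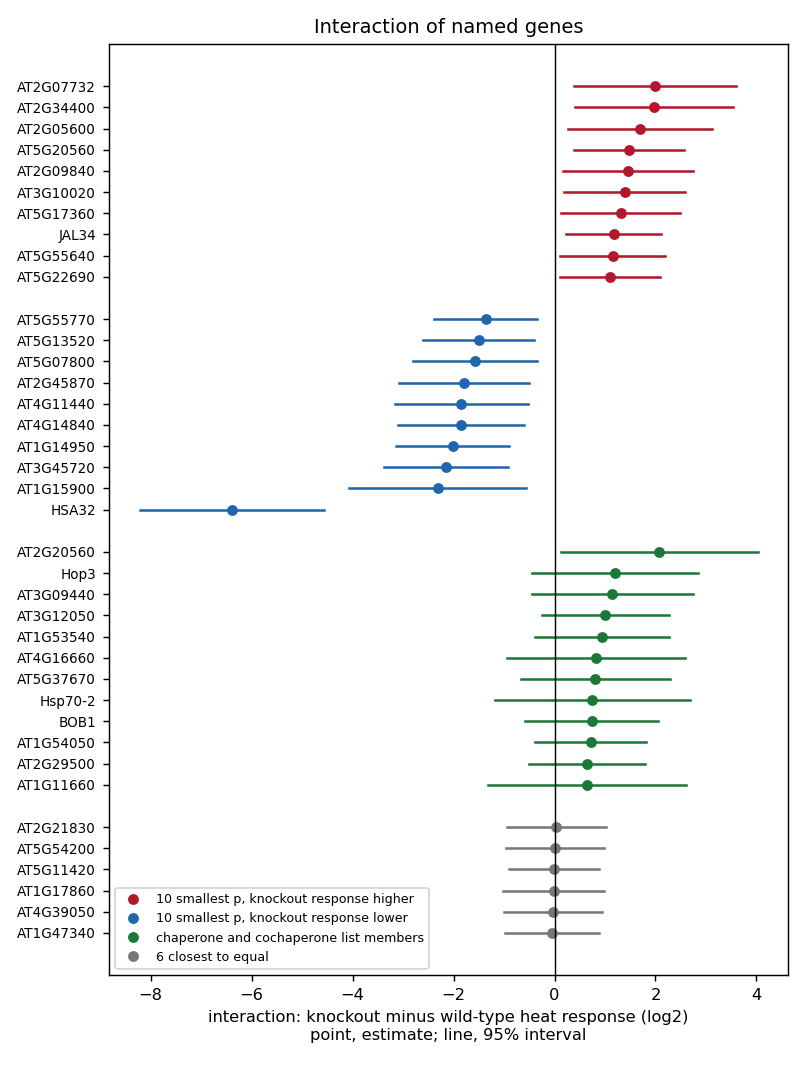
Log2 interaction with its 95% interval (horizontal axis) for the 10 smallest p in each direction, the named small heat shock proteins, HSP70 proteins and cochaperones, and the 6 genes whose interval reached least far from 0 (rows). The interval of HSA32, from −8.22 to −4.57, lies apart from all others, and among the chaperone-type genes that of AT2G20560 alone leaves out 0.

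Transcripts named from mitochondrial genes stood apart by replicate. Of 21 probe sets, 20 had an interaction above 0, with a median of 0.58, against 49.2% of all tested and 83.4% of the raised set. In the knockout 9 were called raised and in wild type 2, against 3.13% and 1.84% of all tested. By replicate number, their median response was 2.98 and 2.76 in the knockout and 1.55 and 2.87 in wild type. Wild-type replicate 1 alone responded less. nad6, a subunit of respiratory complex I, read 10082 and 5419 in heated knockout shoots against 234 and 74.2 in knockout controls, and 627 and 9378 in heated wild-type shoots against 108 and 189 in wild-type controls. Its interaction was 1.65 ± 1.49 with all arrays and 0.07 without both wild-type replicate 1 arrays. Without them 11 of the 21 lay above 0, and the median was 0.00. Leaving out 1 wild-type array moved it to −0.58 (heat replicate 1), 1.79 (heat replicate 2), 0.99 (control replicate 1) and 0.038 (control replicate 2). Leaving out 1 knockout array moved it to 0.24 (heat replicate 1), 0.91 (heat replicate 2) and 0.28 (control replicate 2). The plastid genome list had 51 of 68 above 0 with a median of 0.18, against 49.2% of all tested. It had 45 of 68 above 0 with quantile normalization, and 37 of 68 without both wild-type replicate 1 arrays. Its median was −0.06 without wild-type heat replicate 1 and 0.05 to 0.32 without any 1 of the other 7 arrays.

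The 10 smallest p-values in each direction, among probe sets with 1 gene, are a description of the extremes. Each came with an adjusted p of 1.0 in limma, HSA32 apart. The lower ones were mostly dim. Of all 60 lower probe sets, 29 had a heated knockout mean under the offset of 29.1, against 1.16% of those tested, and 54 had a mean signal under 200. Of 28 higher ones, 20 had a mean signal under 200. In 3 equal groups by brightness, an unadjusted p under 0.05 was reached by 1.38% of the dimmest, 0.151% of the middle and 0.132% of the brightest. For 52 of the 60 lower probe sets the gap between genotypes was wider after heat, and for 18 of the 28 higher ones.

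AT1G14950, of the MLP family, had an interaction of −2.02 ± 0.49 (unadjusted p = 0.0029). It read 32.4 and 17.4 in heated knockout shoots against 149 and 111 in knockout controls, and 129 and 133 in heated wild-type shoots against 71.9 and 106 in wild-type controls. Both heated knockout arrays lay below all 6 others, and both wild-type heated arrays lay above both wild-type controls. AT3G45720, of the NRT1/PTR transporter family, read 11.2 and 14.7 in heated knockout shoots against 161 and 102 in knockout controls, and 72.3 and 138 in heated wild-type shoots against 80.1 and 82.9 in wild-type controls. Its heated knockout arrays were again the lowest of the 8, and its interaction was −2.15 ± 0.54 (unadjusted p = 0.0035). AT5G55770 showed the same layout at −1.36 ± 0.45, with 33.2 and 26.3 in heated knockout shoots against 104 and 112 in knockout controls, and 91.1 and 96.1 in heated wild-type shoots against 78.3 and 85.9 in wild-type controls.

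The other lower ones were AT5G13520, of the M1 peptidase family, at −1.50, AT2G45870, of the bestrophin-like family, at −1.79, and AT5G07800, of the flavin-dependent monooxygenase family, at −1.58. AT4G14840, AT4G11440 and AT1G15900 were at −1.85, −1.84 and −2.31. Leaving out both wild-type replicate 1 arrays gave −6.43 for HSA32, −1.82 for AT1G14950, −2.49 for AT3G45720 and −1.34 for AT5G55770.

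**Figure D5:**
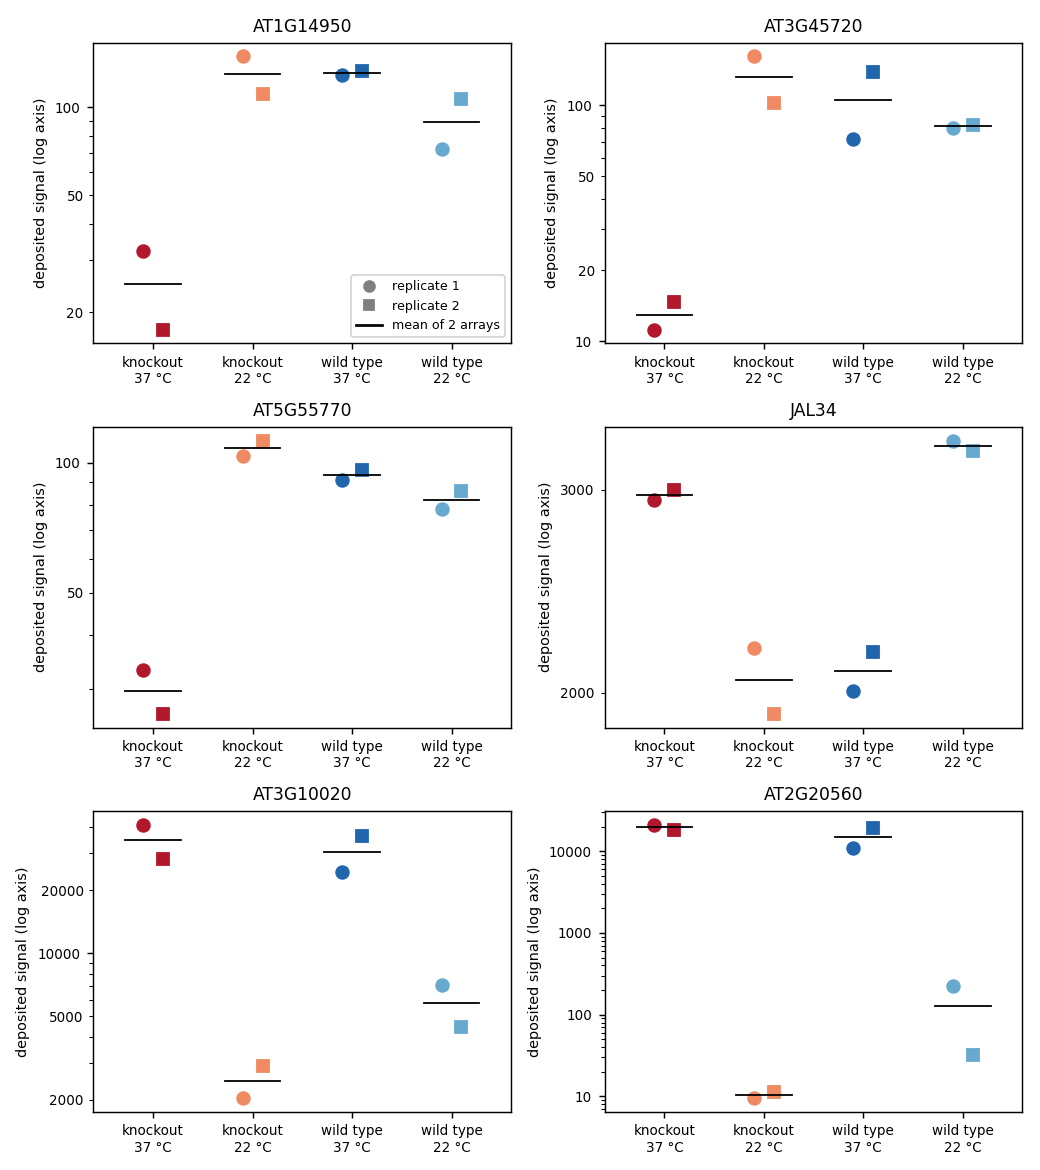
Deposited signal on each of the 8 arrays (log axis, a different range in each panel) for 6 genes, with groups along the horizontal axis, circles for replicate 1, squares for replicate 2 and lines for the mean of 2 arrays. AT1G14950, AT3G45720 and AT5G55770 are lowest in heated knockout shoots, JAL34 crosses over, and AT3G10020 and AT2G20560 rise in both genotypes from lower knockout controls.

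Among the higher ones, JAL34, a jacalin-type lectin, was the brightest whose genotypes moved in opposite directions. It read 2942 and 3000.3 in heated knockout shoots against 2187 and 1918 in knockout controls, and 2008 and 2171 in heated wild-type shoots against 3312 and 3242 in wild-type controls. The heated knockout arrays lay above both knockout controls, and the heated wild-type arrays lay below both wild-type controls. Its interaction was 1.17 ± 0.42 (unadjusted p = 0.021), and 1.10 without the wild-type replicate 1 arrays. AT3G10020 was raised in both genotypes and read 41029.7 and 28047 in heated knockout shoots against 2039.7 and 2895 in knockout controls, and 24354 and 36214 in heated wild-type shoots against 7086 and 4434 in wild-type controls. The heated groups overlapped and the knockout controls lay below the wild-type controls. Its interaction was 1.39 ± 0.53, and 0.77 without the wild-type replicate 1 arrays.

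AT5G20560, of the glycosyl hydrolase 17 family, had the smallest p among the higher ones (unadjusted p = 0.013) and read 154 and 123 in heated knockout shoots against 25.1 and 38.3 in knockout controls, and 91.1 and 136 in heated wild-type shoots against 112 and 115 in wild-type controls. Only the knockout controls stood apart, below the other 6 arrays. AT2G34400, a pentatricopeptide repeat protein, was at 1.96, and AT5G22690, of the TIR-NBS-LRR receptor class, was at 1.10. AT2G07732, AT2G05600, AT2G09840, AT5G55640 and AT5G17360 were at 2.00, 1.70, 1.46, 1.15 and 1.31.

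Within the heat-changed sets, several of the extremes also depended on the wild-type replicate 1 arrays. The highest interactions among raised genes were 2.12 for AT1G10260, 2.08 for AT2G20560, 2.00 for AT2G07732, 1.91 for AT1G48720 and 1.83 for AT2G07728. With both of those arrays left out, the same 5 were at 0.92, 0.66, 1.42, 0.69 and 0.44. Below HSA32, the lowest among raised genes were −1.19 for AT4G04120, −0.99 for AT5G47160 and −0.73 for AT1G73040, with AT5G02430 between the first of these and the next. The same 3 with values were at −0.99, −0.35 and −0.47 without those arrays. HSA32 was thus separated from the next raised gene by more than 5 log2 units. Among lowered genes the highest were 1.43 for AT2G35170 and 1.21 for AT4G00990, and the lowest were −1.85 for AT4G14840, −1.79 for AT2G45870 and −1.78 for AT3G01430. Of these 5, AT3G01430 moved most without those arrays, to −0.34. AT1G36940, also among the 5 lowest at −1.58, turned to 0.11.

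Responses were also counted array by array, with no model. Every pairing of heated with control arrays put the knockout response wholly above or wholly below that of wild type for 985 probe sets (6.19%), 406 higher (2.55%) and 579 lower (3.64%). Within the raised set 76 were higher (9.10%) and 8 lower, and within the lowered set 149 were lower (7.78%) and 33 higher. Responses of opposite sign in every pairing were found for 99 probe sets (0.622%).

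Growth and hormone transcripts gave small lists. All 3 auxin response genes lay below 0, GH3.3 at −1.11 ± 1.00, WES1 at −0.96 ± 0.73 and IAA29 at −0.74 ± 0.78. GH3.3 and WES1 join auxin to amino acids, and IAA29 is a repressor of auxin signalling. Leaving out both wild-type replicate 1 arrays put them at −0.13, 0.04 and −0.07. The list's median turned to 0.14 (−0.96 with all arrays) without wild-type control replicate 1, and was −1.61 without wild-type control replicate 2. COB, needed for oriented cellulose deposition, and EXPA4 and EXPA8, which loosen cell walls, were at −0.75 ± 0.90, −0.59 ± 0.93 and 0.33 ± 1.18. All 3 changed sign without both wild-type replicate 1 arrays, to 0.25, 0.46 and −0.27. Their median was −0.59 with all arrays and 0.35 without wild-type control replicate 1. The dehydration genes COR47, COR15B and COR15A were at −0.35, −0.55 and −0.19, and at 0.21, −0.16 and −0.51 without both wild-type replicate 1 arrays. Their median turned to 0.082 when wild-type control replicate 1 was left out. The oxidative stress zinc finger STZ was at −0.54 and ran from −1.99 to 0.91 when 1 array was left out. The lowest of these was without wild-type control replicate 2 and the highest without wild-type control replicate 1. The clock gene GI was at 0.55, and 0.76 without both wild-type replicate 1 arrays. None of these 11 had an unadjusted p under 0.05.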

How the data were processed

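Total RNA from shoots was labelled with biotin and read on 8 one-colour arrays, per the labels. The authors deposited 1 linear intensity per probe set and array. What software made it was not given in the sources used here. Every array had a 2% trimmed mean between 500.04 and 500.07. Groups were taken from the sample titles.

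Values were analysed as log2(signal + 29.1), the offset being the 20th percentile of all values. It understates changes of dim transcripts. The 64 controls and the dimmest 30% (mean signal 61.7 or lower) were left out. The model in limma 3.58.1, run in R 4.3.3, had a mean per group, a variance trend, 4 residual and 4.79 prior degrees of freedom, two-sided tests and a threshold of 0.05. The script was tested on simulated data with independent noise on each array. That test does not cover residuals that correlate between arrays. Replicates are separate pools of plants, but residuals of same-numbered arrays correlated within each genotype (0.52 and 0.54). The small number of arrays limits precision. Errors also depended on the model, and that of HSA32 went from 0.80 to 0.32 with a block within each genotype.

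By the platform annotation, 13513 probe sets read 1 gene, 503 read several and 8730 had no name here. Symbols were updated through RefSeq. Mitochondrial genes were matched by symbol, a rule set after the annotation was seen.

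Members and lists were chosen with earlier results of these data known. Named genes are HSA32, the 10 smallest interaction p in each direction, up to 4 members per list by p, the 5 highest and 5 lowest interactions in each heat-changed set, and the 6 whose interval reaches least far from 0. Where several probe sets read 1 gene, the brightest was named. Alternatives were other offsets, filters and scalings, no variance trend, robust moderation, replicate blocks and arrays left out.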

Additional observations from a re-analysis of the deposited data

Results flagged for a closer look

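For 7 named genes every pairing of a heated with a control array gave a response of one sign in the knockout and of the opposite sign in wild type, with an unadjusted interaction p under 0.05 in limma. None passed the adjusted test. Over all 15919 probe sets tested, 99 (0.622%) had opposite signs in every pairing. All 7 named genes were among those with the smallest interaction p in each direction. HSA32 was also named as the gene knocked out. Choosing by that p itself favours responses of opposite sign, so the 7 genes are not evidence of an excess over 0.622%. The log2 interactions were −6.39 for HSA32, −2.02 for AT1G14950 and −1.36 for AT5G55770, whose responses were negative in the knockout and positive in wild type. They were 1.96 for AT2G34400, 1.17 for JAL34, 1.15 for AT5G55640 and 1.10 for AT5G22690, whose responses were positive in the knockout and negative in wild type. AT5G22690 read 221 and 307 in heated knockout shoots against 177 and 169 in knockout controls, and 104 and 127 in heated wild-type shoots against 188 and 184 in wild-type controls. AT2G34400 read 121 and 105 in heated knockout shoots against 12.7 and 88.6 in knockout controls, and 54.3 and 34.9 in heated wild-type shoots against 117 and 106 in wild-type controls. Groups of 2 arrays are too small for a test of single outlying arrays.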

How the results depend on the processing

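With 2 arrays a group, precision limits every statement, and signals near the offset of 29.1 carry little. Leaving out 1 array in turn kept the interaction count at 0 and gave 49 to 631 probe sets at an unadjusted p under 0.05, against 88 with all arrays. With no filter 405 of 22746 reached it, and with the dimmest 50% left out 17 of 11373. Without both wild-type replicate 1 arrays, which leaves wild type with no replicate arrays, the lowered set's median turned to 0.041. In that setting HSA32 was at −6.43. The replicate block, with same-numbered arrays as blocks, left 0 calls, 84 at an unadjusted p under 0.05 and HSA32 at −6.39 (adjusted p = 1.0). Residuals of same-numbered arrays correlated at 0.52 in the knockout and 0.54 in wild type but at −0.24 to −0.39 across genotypes. The numbers were therefore not taken to pair arrays across genotypes. The main fit, with no block, also leaves out the link within each genotype. A crossed block and a block within each genotype, both chosen after these correlations were seen, gave 239 and 382 at an unadjusted p under 0.05 and called 1 probe set each, lower in the knockout, HSA32 at −6.39 (adjusted p 0.0094 and 0.0003). HSA32 lay between −7.10 and −5.69 with 1 array left out. Leaving out 1 array gave medians of 0.24 to 0.51 for the raised set and −0.40 to −0.09 for the lowered set. Of the 101 named genes, 83 kept their sign without both wild-type replicate 1 arrays. The cause of these shifts was not tested.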

Other observations

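Other gene families were described in the same way, beside 49.2% of all tested probe sets above 0 with all arrays. Of 14 cytochrome P450 probe sets 12 had an interaction above 0, with a median of 0.41, and without both wild-type replicate 1 arrays 10 did. Leaving out any 1 array kept the median between 0.22 and 0.61, with the lowest values of 0.22 without wild-type heat replicate 2 or knockout control replicate 1, 0.23 without knockout heat replicate 2 and 0.23 without wild-type control replicate 1. CYP71B29 was the highest of those named, at 1.21 ± 0.64 (unadjusted p = 0.093 in limma), and 1.99 without both wild-type replicate 1 arrays. Of 27 UDP-glycosyltransferases, which join sugars to small molecules, 15 lay above 0, with a median of 0.05, and 11 did without both wild-type replicate 1 arrays, with a median of −0.09. UGT73C1, the only named member raised on the mean response, was at 1.01 ± 0.87, and −0.0068 without those arrays. Leaving out 1 array moved it from 0.018 to 2.00. Of 14 SWEET sugar transporters 7 lay above 0, with a median of −0.08, and SWEET14 was lowest of those named at −1.18 ± 0.56 (unadjusted p = 0.066 in limma), and −1.88 without those arrays. Of 9 ATG8 autophagy genes 4 lay above 0, with a median of −0.05. The defence genes THI2.1 and SAG101 were at 0.50 and −0.06, and at 0.23 and −0.29 without those arrays. No member of these lists had an unadjusted p under 0.05.

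Among plastid genes, accD, for a subunit of acetyl-CoA carboxylase, was at 1.02 ± 0.77, and psbN, rps18 and petN were at −1.25 ± 0.96, −0.87 ± 0.65 and −0.82 ± 0.57. Of these 4, rps18 moved most without both wild-type replicate 1 arrays, to −0.22. The mitochondrial genes nad9, ccb203 and ccb382 were at 0.78, 0.92 and 0.45, and at 0.40, 0.43 and −0.07 without them. The root marker EXPA18 and the seed marker PAP85 were at 0.17 and 0.77, and at −0.43 and 0.08 without them.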
